A study of Mus musculus with 4 samples.

Results

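The PYHIN genes form a family of interferon-inducible genes, called the Ifi200 cluster, on mouse chromosome 1. The 9 genes described here (Aim2, Pyhin1, Pydc3, Ifi204, Mndal, Mnda, Ifi203, Ifi202b and Ifi205) are the rows of the deposited tables with these symbols, out of 23305 genes. They were chosen by family and by their FPKM values in both genotypes, so the difference between the genotypes is given for them as a description, without a p-value. The RNA came from quiescent follicular B cells sorted from spleens of female mice as B220-positive, CD23-high and CD21-low cells negative for CD80 and for switched immunoglobulins. There were 2 libraries from wild-type (WT) C57BL/6 mice and 2 from Ets1-/- mice, which carry a constitutive mutation of Ets1 and were kept on a mixed C57BL/6 x 129Sv background because loss of Ets1 on pure C57BL/6 is lethal around birth. The WT libraries are labelled C57BL/6 and the Ets1-/- libraries C57BL/6 x 129Sv, so strain background and Ets1 genotype change together, and their effects on these genes cannot be told apart in the 4 libraries. The methods call the libraries of a genotype biological replicates, and the sources used here give neither the age of these mice nor whether animals were pooled.

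PYHIN proteins usually pair an N-terminal pyrin domain, through which they bind other proteins, with a C-terminal HIN domain that binds DNA. AIM2 binds double-stranded DNA in the cytosol and recruits the adaptor ASC (gene Pycard), which activates caspase-1 in an inflammasome. The p204 protein of Ifi204 is a mouse relative of human IFI16 and has been described as a DNA sensor acting through STING (gene Tmem173), whereas the protein of Ifi202b lacks a pyrin domain, can oppose AIM2 and has been studied as a lupus susceptibility factor in mice. The number and the sequence of the genes in this cluster vary between inbred strains of mice. Whether such variation changed how reads were aligned or counted for these genes was not tested.

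The cluster spans 680.9 kb, from position 175281010 to 175961886 of chromosome 1 in mm9, the genome build of the files. The GENCODE M1 annotation of mm9 places 15 genes there, of which 13 are in the files. These are the 9 PYHIN genes, their relatives BC094916, Pydc4 and AI607873, and Cadm3, whose span overlaps that of Aim2 on the other strand and which was at or near 0. Aim2, Pyhin1 and Pydc3 lie on the plus strand and the other 6 PYHIN genes on the minus strand. Mndal is annotated from 175787352 to 175872622, a span that includes all of Mnda (175826486 to 175843053) and most of Ifi203, with which it shares 37 exonic bases.

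Many of these genes share an element before their transcript start. RefSeq promoter entries (GRCm38.p6, each placed on mm9 by a single exact match) were found for 8 of the 9 genes and for their 3 relatives, and Ifi204 had no entry. Where RefSeq uses another symbol, the entry was matched by its position to the annotated start. The RefSeq starts of Mndal disagree with GENCODE M1, since both of its entries lie inside the annotated span of Mndal, 62304 and 62533 bases from the annotated start. The interferon-stimulated response element was searched on both strands as GAAA, then any 2 bases, then GAAA. It was found before the RefSeq start of 5 of the 8 genes (Pydc3, Mndal, Mnda, Ifi203 and Ifi205) and of all 3 relatives, against 3.44% of 32851 RefSeq mouse promoters of the same length. The windows below are 60 bases of mm9, written 5′ to 3′ on the strand of the gene, with the match in capitals. Of the genes shown with a match, Mnda and Ifi205 were higher in Ets1-/- B cells, both at low FPKM, and the others were lower. Whether the element has a part in these differences was not tested. For Pyhin1 the capitals mark the stretch that aligns with the element of BC094916, from which it differs by G1T, counted from 1 at the first base of the element in BC094916, so that it was not a match. They lie at chr1:175603698-175603757 (plus strand) for Pydc3, chr1:175529457-175529516 (minus) for Pydc4, chr1:175560871-175560930 (plus) for Pyhin1, chr1:175466148-175466207 (minus) for BC094916, chr1:175872639-175872698 (minus) for Ifi203, chr1:175810335-175810394 (minus) for Mndal, chr1:175843195-175843254 (minus) for Mnda and chr1:175962001-175962060 (minus) for Ifi205.
Pydc3: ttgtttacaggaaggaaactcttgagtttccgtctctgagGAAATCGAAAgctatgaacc
Pydc4: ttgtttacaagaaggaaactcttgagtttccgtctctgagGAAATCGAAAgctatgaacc
Pyhin1: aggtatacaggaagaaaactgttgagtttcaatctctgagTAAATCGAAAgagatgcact
BC094916: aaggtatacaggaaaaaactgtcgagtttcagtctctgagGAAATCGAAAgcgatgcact
Ifi203: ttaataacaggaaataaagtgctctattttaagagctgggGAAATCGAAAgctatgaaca
Mndal: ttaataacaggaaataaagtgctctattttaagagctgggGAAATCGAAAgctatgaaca
Mnda: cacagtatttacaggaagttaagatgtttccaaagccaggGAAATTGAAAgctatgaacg
Ifi205: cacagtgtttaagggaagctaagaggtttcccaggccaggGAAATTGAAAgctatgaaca

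An ETS site, searched as CNGGAAGT on both strands, was found once each for Pyhin1, Mnda and AI607873, against 9.53% of all promoters. A gamma-activated sequence, searched as TTCNNNGAA, was found only for Ifi202b among the 11 genes, against 8.3% of all promoters. These matches describe the letters in the reference sequence of C57BL/6 and were not tested here for binding. The study mapped sites bound by Ets1 in splenic B cells of C57BL/6 mice by ChIP-seq, and those sites were not used here.

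By the level in WT follicular B cells the family fell into 2 groups. FPKM is a count of sequenced fragments scaled to transcript length and to the total of the library. As a value per length it allows a rough comparison between genes of unlike length. How far sequence shared between these genes affects the comparison was not tested. Mndal had the highest mean level, 151 ± 15.9 FPKM (SD, n = 2), above the level of 97.7% of all 23305 genes. Ifi203 followed at 100.3 ± 17.5 FPKM and Pyhin1 at 85.2 ± 16.7 FPKM, and the values of these neighbours overlapped. Pydc3 (45.2 ± 0.692 FPKM) and Aim2 (36.0 ± 4.51 FPKM) were next and did not overlap. The other 4 genes were below 1 FPKM in WT cells, with Ifi204 at 0.226 ± 0.157 FPKM, Mnda at 0.220 ± 0.102 FPKM and Ifi205 at 0.133 ± 0.000199 FPKM, while Ifi202b was listed at 0 in both libraries. The expressed group thus joins the cytosolic DNA sensor Aim2 with 4 genes of less studied proteins, and the low group holds Ifi204 and Ifi202b.

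In Ets1-/- B cells the order of the genes was different. Mndal (95.5 ± 45.2 FPKM, SD, n = 2) and Ifi203 (58.4 ± 16.0 FPKM) were still the highest, and were followed by Aim2 (29.3 ± 13.6 FPKM), Pyhin1 (27.6 ± 15.1 FPKM) and Ifi204 (20.9 ± 9.61 FPKM). Neighbours in this order overlapped, except that both Ifi203 values were above both Aim2 values, and the order was the same in both Ets1-/- libraries. Mnda (2.29 ± 1.14 FPKM) came next and overlapped with Pydc3 (1.44 ± 0.287 FPKM). Ifi204 made up 0.0885% and 0.0252% of the summed FPKM of the 9 genes in the WT libraries and 8.99% and 8.56% in the Ets1-/- libraries, while Pydc3 went from 12.0% and 9.80% to 0.532% and 0.750%.

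**Figure D1:**
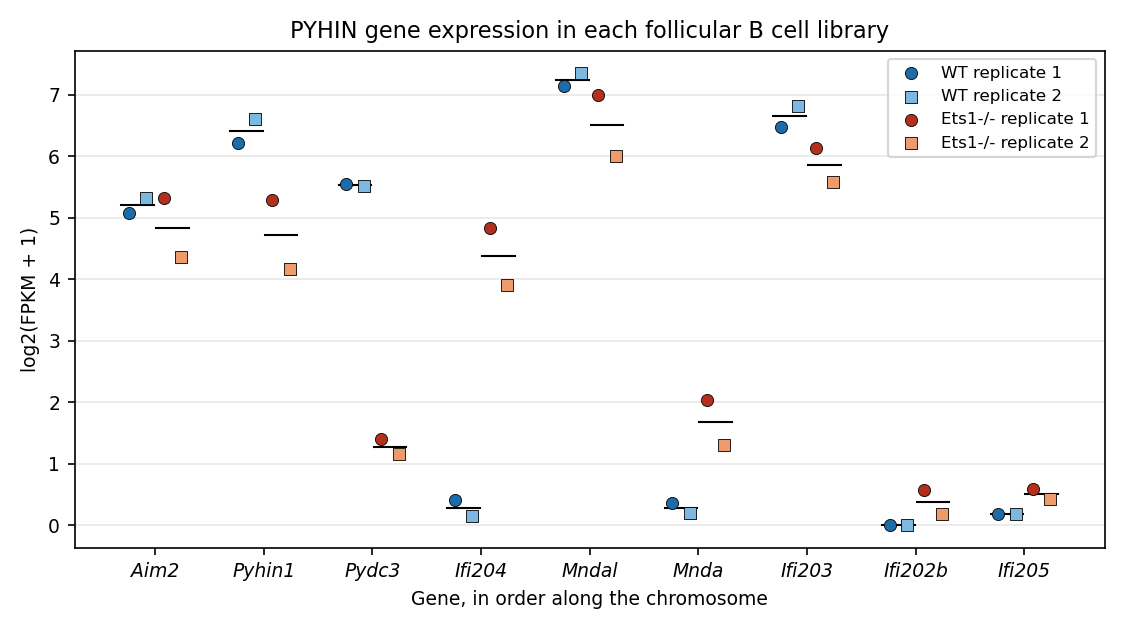
Expression of the 9 PYHIN genes on the log2(FPKM + 1) scale (y axis), with 1 point for each library and genes in their order along chromosome 1 (x axis). Short black lines are the means of the 2 libraries of a genotype. Pydc3 is low and Ifi204 is high in both Ets1-/- libraries, and Ets1-/- replicate 2 is below Ets1-/- replicate 1 for every gene.

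Pydc3, a gene of a protein named for its pyrin domain, showed the largest drop of the family. Its FPKM was 45.7 and 44.7 in the WT libraries and 1.64 and 1.23 in the Ets1-/- libraries. The WT mean was 31.5 times the Ets1-/- mean, and the fitted difference (Ets1-/- minus WT) was -4.25 on the log2(FPKM + 1) scale, with a standard error of 0.15. This scale, used for all fitted differences here, adds 1 to each FPKM and understates the change of low genes. Among the 10949 genes tested, whose mean reached 1 FPKM in one genotype or in both, only 9 had a lower fitted difference than Pydc3.

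Pydc4, the relative named like Pydc3, was lower by a similar ratio of means. It lies from 175497204 to 175529405 on the minus strand, with Pyhin1 between it and Pydc3. Pydc4 had 11.4 and 10.7 FPKM in WT and 0.360 and 0.354 FPKM in Ets1-/- B cells, a WT mean 31.0 times the Ets1-/- mean. The fitted difference was -3.15 (standard error 0.14, limma, Benjamini-Hochberg adjusted p = 0.00228). In the 250 bases before the transcript start, Pydc3 and Pydc4 were identical at 233 of 235 aligned bases, or 99.1%, the highest value among 13 pairs of genes of the cluster with at least 150 aligned bases, whose median was 69.4%.

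Ifi204 was the PYHIN gene that was most clearly higher in Ets1-/- B cells. It lies from 175677424 to 175697050, next to AI607873, and had 0.337 and 0.115 FPKM in the WT libraries and 27.7 and 14.1 FPKM in the Ets1-/- libraries. The Ets1-/- mean was 92.3 times the WT mean, and the fitted difference was 4.09 (standard error 0.33). The Ets1-/- libraries differed from each other, but the lower of them was far above both WT libraries. Only 20 of the 10949 genes had a higher fitted difference.

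Mnda, which bears the name of the human myeloid cell nuclear differentiation antigen, was at a much lower level but changed in the same direction. It had 0.292 and 0.148 FPKM in WT and 3.09 and 1.48 FPKM in Ets1-/- B cells, so that the Ets1-/- mean was 10.4 times the WT mean, with a fitted difference of 1.39 (standard error 0.28), which was 2.85 with a pseudocount of 0.1. Of all 50-base words in the protein-coding transcript of Mnda, 78.8% also occur in transcripts of other genes, most of them in Ifi205 (48.4%), and 22.1% of the words of Ifi204 occur in Mnda. Reads from one gene could therefore have been counted for another, and how the authors' program divided such reads is not given in the sources used here. The part of read sharing in the value of Mnda was not tested.

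Ifi202b and Ifi205 stayed below an FPKM of 1 in every library and were not fitted. Ifi202b, the gene of the protein without a pyrin domain, was listed at 0 in both WT libraries and at 0.495 and 0.135 FPKM in the Ets1-/- libraries. No ratio of means is given for it, because its WT mean was 0. A listed 0 may not be a true 0, since 1 of 76 ribosomal protein symbols was also at 0 in all libraries. Ifi205, whose protein is known mainly from macrophages, had 0.1333 and 0.133 FPKM in WT and 0.499 and 0.342 FPKM in Ets1-/- B cells, and the Ets1-/- mean was 3.16 times the WT mean. Both genes were higher in both Ets1-/- libraries; the number of fragments behind these low values is unknown. Ifi202b shared no 50-base word with another transcript and Ifi205 shared 49.5% of its words.

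Pyhin1, Ifi203 and Mndal were well expressed in both genotypes and lower in the Ets1-/- libraries. Pyhin1 had 73.4 and 97.1 FPKM in WT and 38.3 and 16.9 FPKM in Ets1-/- B cells, so that the WT mean was 3.09 times the Ets1-/- mean, with a fitted difference of -1.69 (standard error 0.40). Without Ets1-/- replicate 2 this difference was -1.12, and without Ets1-/- replicate 1 it was -2.25. Ifi203 had 87.9 and 112.7 FPKM in WT and 69.7 and 47.0 FPKM in Ets1-/- B cells, a fitted difference of -0.79 (standard error 0.25). Mndal had 139.9 and 162.4 FPKM in WT and 127.5 and 63.5 FPKM in Ets1-/- B cells, a fitted difference of -0.74 (standard error 0.35). The higher Ets1-/- value of Mndal was close to the lower WT value, and without Ets1-/- replicate 2 its difference was -0.24.

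Mndal and Ifi203 had close fitted differences and were close in sequence before their RefSeq starts, but less so in their transcripts. Before the RefSeq starts, of which that of Mndal lies 62304 bases inside its GENCODE span, they were identical at 97.5% of 239 aligned bases. In the transcripts 2.12% of the 50-base words of Ifi203 were also in Mndal. Of the words of Mndal 28% occur in other genes, with 15.9% in Mnda. The part of read sharing in the value of Mndal was not tested. Pyhin1 was paired by sequence with BC094916, at 95.2% identity over 249 bases and with 35.6% of its words in that gene. BC094916 had 12.3 and 15.3 FPKM in WT and 11.5 and 5.75 FPKM in Ets1-/- B cells. Its fitted difference was -0.68 (standard error 0.32, limma, Benjamini-Hochberg adjusted p = 0.4825).

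Aim2, the inflammasome sensor, was the PYHIN gene whose genotypes overlapped. Its FPKM was 32.8 and 39.2 in WT and 38.9 and 19.6 in Ets1-/- B cells. The fitted difference was -0.36 (standard error 0.33) and turned to 0.12 without Ets1-/- replicate 2, so no direction is given. The relative AI607873 behaved likewise, with 1.86 and 1.89 FPKM in WT and 1.91 and 1.06 FPKM in Ets1-/- B cells (fitted difference -0.23, limma, Benjamini-Hochberg adjusted p = 0.779).

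**Figure D2:**
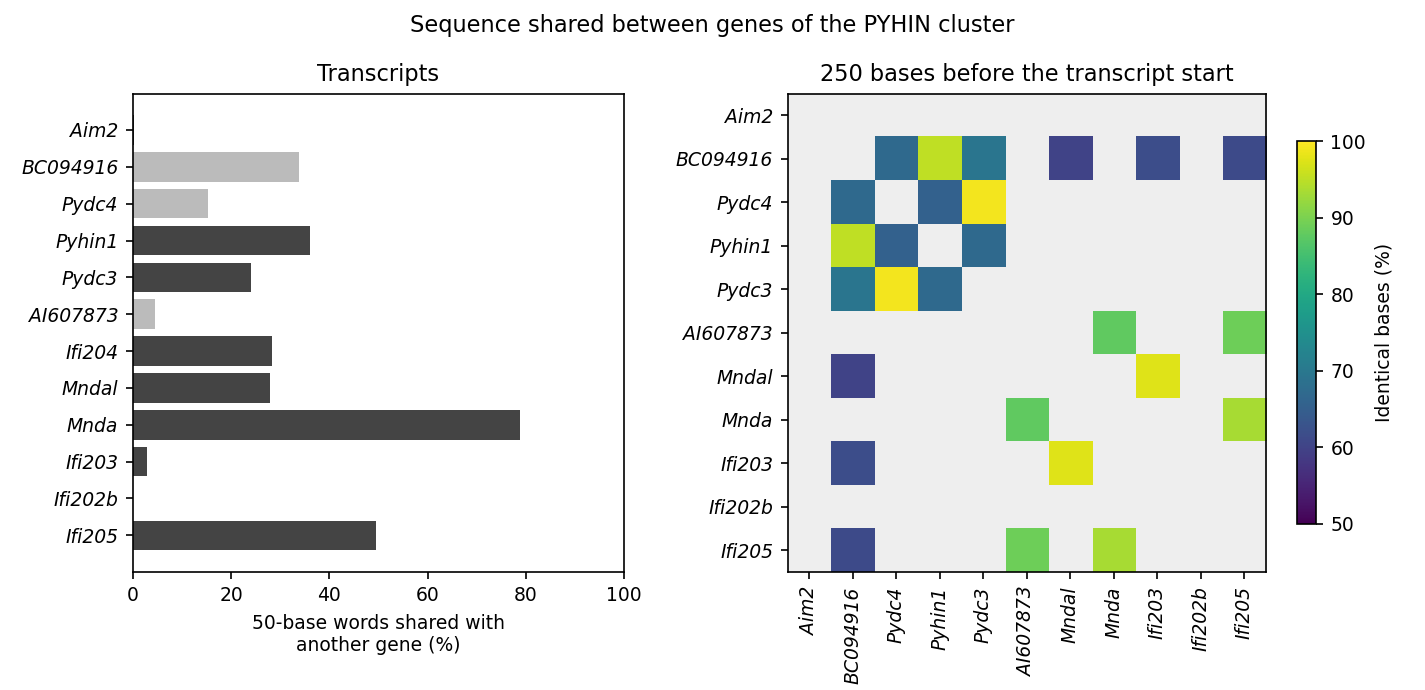
Left, percentage of the 50-base words of each gene's protein-coding transcripts that also occur in transcripts of another gene (x axis), for the 9 PYHIN genes (dark) and 3 relatives (light). Right, percentage of identical bases between the 250 bases before the transcript starts of each pair of genes (color), with pairs of under 150 aligned bases in gray. Mnda shares 78.8% of its words, and Pydc3 with Pydc4 is the pair of highest identity before the start, at 99.1%.

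Of the 9 PYHIN genes 7 reached this mean and entered the model, 2 of them (Ifi204 and Mnda) only through their Ets1-/- values. A gene was called at a fitted difference of at least 1 in either direction and an adjusted p of 0.05 or less. By this rule 1 of the 7 was called higher (Ifi204), beside 0.877% of the 10949 genes, and 1 was called lower (Pydc3), beside 0.822%. Both Ets1-/- libraries were above both WT libraries for 2 of the 7, beside 19.4% of all genes tested, and below both for 4, beside 22.2%. The genes were chosen with this comparison known, so nothing is read from these counts. The median fitted difference of the 7 was -0.74, against -0.02 for all genes tested. On the chromosome, Pydc3 and Ifi204 had only AI607873 between them.

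**Figure D3:**
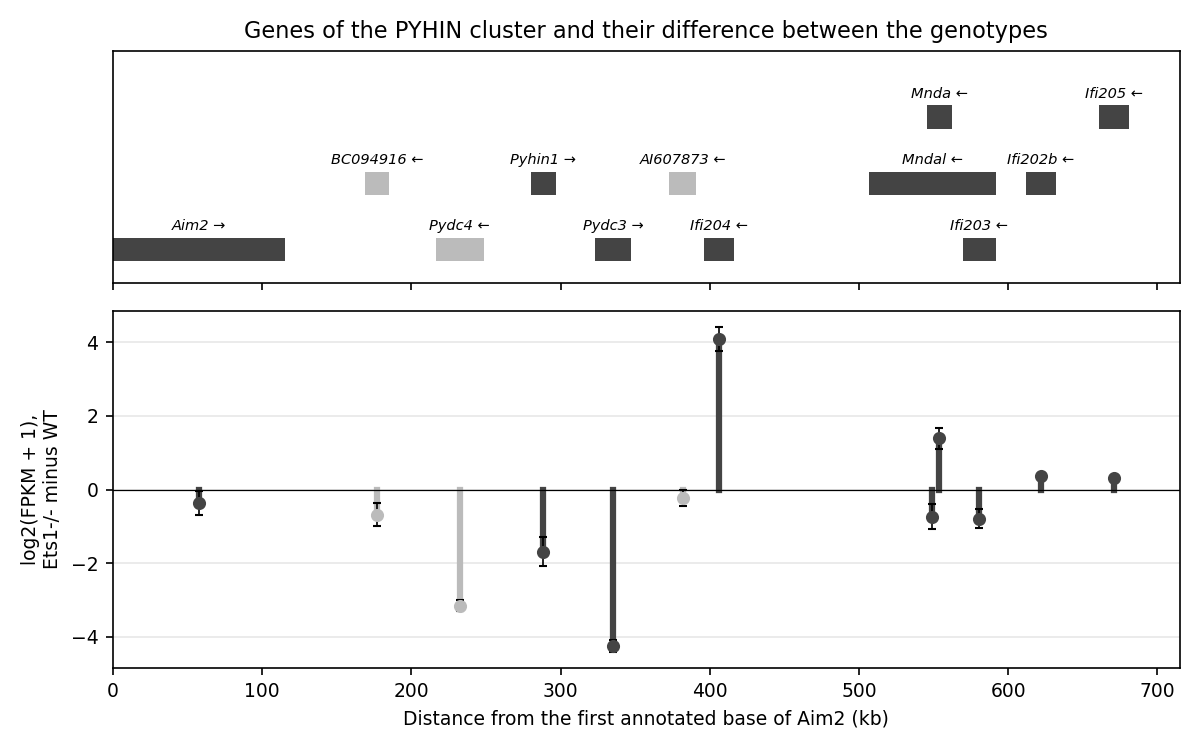
Top, extent of the 9 PYHIN genes (dark) and 3 relatives (light) as distance from the first annotated base of Aim2 in kb (x axis), on staggered rows and with arrows for the strand. Bottom, difference of each gene on the log2(FPKM + 1) scale, Ets1-/- minus WT, with the standard error of the fit where the gene was tested. Pydc3 at -4.25 and Ifi204 at 4.09 lie on either side of AI607873 at -0.23.

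The 2 Ets1-/- libraries differed from each other in one direction across the family. All 9 genes were lower in Ets1-/- replicate 2 than in Ets1-/- replicate 1, by ratios from 0.272 (Ifi202b) to 0.752 (Pydc3), with a median of 0.505. Of all genes tested 45.5% were lower in replicate 2, the median ratio was 1.035, and 20.4% had a ratio as low as that of Pydc3 or lower. Between the WT libraries the ratios of replicate 2 to replicate 1 ran from 0.342 (Ifi204) to 1.32 (Pyhin1), and 4 of the 9 genes were higher in replicate 2. Marker sums also moved between the Ets1-/- libraries, in both directions. From replicate 1 to replicate 2 the sums rose for follicular B cells (5298 to 6278 FPKM), plasma cells (138 to 152), T cells (88.0 to 113) and NK cells (17.8 to 26.3). They fell for the neutrophil, monocyte and macrophage, erythroid and dendritic (7.07 to 6.65) lists. The 8 neutrophil markers, led by S100a8, summed to 111 and 92.3 FPKM in WT and to 2555 and 699 FPKM in Ets1-/- replicates 1 and 2, and 3 of them, Ngp, Camp and Ltf, were called higher. The 7 monocyte and macrophage markers, led by Lyz2, summed to 53.6 and 27.1 FPKM in WT and to 136 and 88.7 FPKM in Ets1-/- libraries, with 1 called higher and 3 under an FPKM of 1 everywhere. The called gene was Emr1, which encodes the macrophage marker F4/80 and rose from 2.35 and 2.63 FPKM to 23.5 and 37.2 FPKM (fitted difference 3.13, limma, Benjamini-Hochberg adjusted p = 0.00969).

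Several PYHIN genes are expressed in myeloid cells, so these markers are given beside the genes that were higher. Lyz2 had 42.2 and 17.9 FPKM in WT and 102 and 45.7 FPKM in Ets1-/- B cells (limma, adjusted p = 0.407). Csf1r, the receptor that marks monocytes and macrophages, was at 2.35 and 0.999 FPKM in WT and at 1.86 and 0.876 FPKM in Ets1-/- B cells, and no marker of either list was at 0 in all libraries. The part of myeloid RNA in the values of Ifi204, Mnda, Ifi202b and Ifi205 was not tested. The 4 erythroid markers, led by Hbb-b1, summed to 6.21 and 3.95 FPKM in WT and 63.5 and 27.6 FPKM in Ets1-/- libraries. The 8 follicular B cell markers, led by Cd79a, summed to between 5298 and 6625 FPKM in every library. The sums ran from 138 to 189 FPKM for 5 plasma cell markers, from 88.0 to 124 FPKM for 7 T cell markers, from 17.8 to 35.2 FPKM for 5 NK cell markers and from 4.575 to 7.07 FPKM for 5 dendritic cell markers. Of these lists 1 gene was called, the T cell marker Thy1, which fell from 17.4 and 16.2 FPKM to 3.38 and 3.40 FPKM (limma, Benjamini-Hochberg adjusted p = 0.00658). Among the NK cell markers Ncr1 had 2.42 and 0.957 FPKM in WT and 0.0224 and 0.128 FPKM in Ets1-/- B cells, and Klrb1c had 2.19 and 1.248 FPKM in WT and 0.313 and 0.419 FPKM in Ets1-/- B cells, with adjusted p of 0.145 and 0.136 (limma). In RNA of sorted cells a smaller number of expressing cells and less RNA per cell cannot be told apart. Ets1 itself had 231 and 275 FPKM in WT and 229 and 229.8 FPKM in Ets1-/- B cells. Its fitted difference was -0.14 (limma, Benjamini-Hochberg adjusted p = 0.860), so the whole-gene value does not check the genotype labels.

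The flanks of the cluster were used to see whether large differences went on beyond it. Within 1 Mb of the cluster 39 other genes of the files are annotated, the relatives included, of which 10 were tested and 1, Pydc4, was called. After Pydc4 the largest differences belonged to Dusp23 and Slamf9. Dusp23, a phosphatase gene, had 2.28 and 1.13 FPKM in WT and 0.348 and 0.530 FPKM in Ets1-/- B cells (fitted difference -0.88, limma, Benjamini-Hochberg adjusted p = 0.216). Slamf9, of the SLAM receptor family, had 4.54 and 3.39 FPKM in WT and 7.89 and 6.43 FPKM in Ets1-/- B cells (fitted difference 0.72, limma, Benjamini-Hochberg adjusted p = 0.178). Out to 10 Mb on either side, 3 of 108 tested genes outside the cluster were called, or 2.78%, beside 1.7% of all genes tested. They were Atp1b1 and Psen2, which were lower, and Itln1, which was higher. Slamf6 (fitted difference 1.427) and Cd247 (1.085) were higher but not called. The median absolute fitted difference was 0.3113 from -1 to 0 Mb and 0.3653 from 1 to 2 Mb. For the 1 gene from 0 to 1 Mb it was 0.4478, and for all genes tested 0.1577. The medians were 0.2133 from -2 to -1 Mb, 0.1001 from -5 to -2 Mb and 0.09779 from 2 to 5 Mb. They were 0.2214 from -10 to -5 Mb and 0.2187 from 5 to 10 Mb. On all of chromosome 1, 12 of 580 tested genes (2.07%) were called, 3 of them in the cluster.

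**Figure D4:**
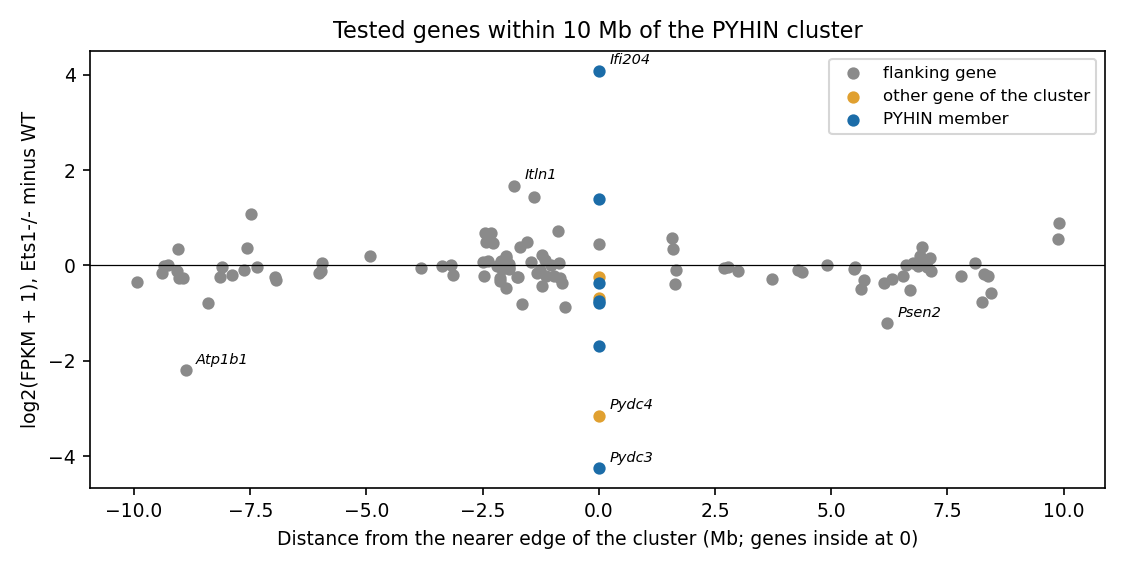
Difference of tested genes on the log2(FPKM + 1) scale, Ets1-/- minus WT (y axis), against distance in Mb from the nearer edge of the cluster (x axis), with genes inside the cluster at 0. Named points were called. Of 108 flanking genes 3 were called, and none lay beyond the values of Pydc3, Pydc4 and Ifi204.

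Other interferon-stimulated genes were compared because the PYHIN genes are induced by interferon. Of 44 listed genes outside the family 43 were found in the files and 40 were tested, of which 0 were called higher and 1 was called lower, beside the 1.7% of all genes called. The median fitted difference of the 40 was -0.07, with 17 higher and 23 lower by their mean, and 8 had an unadjusted p under 0.05, beside 13.3% of all genes tested. Oasl2, an oligoadenylate synthetase-like gene, fell from 4.77 and 3.84 FPKM to 0.144 and 0.146 FPKM (fitted difference -2.21, standard error 0.17, limma, Benjamini-Hochberg adjusted p = 0.00969). Its WT mean was 29.7 times the Ets1-/- mean, a ratio near the 31.5 of Pydc3 and the 31.0 of Pydc4. With either Ets1-/- replicate left out, Oasl2 was no longer called. Eif2ak2, the gene of the kinase PKR, had 6.88 and 7.66 FPKM in WT and 4.23 and 1.90 FPKM in Ets1-/- B cells, with a Benjamini-Hochberg adjusted p of 0.199 (limma). Lgals3bp had 12.6 and 9.62 FPKM in WT and 5.14 and 7.12 FPKM in Ets1-/- B cells, where limma likewise gave an adjusted p of 0.199.

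Of the 40 tested interferon-stimulated genes 13 were lower in Ets1-/- replicate 2 than in replicate 1, beside 45.5% of all genes tested, and the median ratio was 1.16. Some of them had ratios like those of the PYHIN genes, such as Eif2ak2 (0.448), Herc6 (0.513) and Rsad2 (0.560), and the difference between the lists was not tested. Among 10 genes of interferon receptor chains and their signal transducers, 0 were called by limma in either direction, and 2, Ifngr1 and Jak2, had an unadjusted p under 0.05. Ifngr1, a chain of the interferon gamma receptor, had 40.4 and 41.5 FPKM in WT and 26.3 and 24.8 FPKM in Ets1-/- B cells (fitted difference -0.66, limma, Benjamini-Hochberg adjusted p = 0.0969). The kinase genes Jak2 and Jak1 had fitted differences of -0.45 and -0.32, with adjusted p of 0.366 and 0.467 (limma). The type I interferon receptor chains Ifnar1 and Ifnar2 had differences of 0.04 and -0.00075, with standard errors of 0.15 and 0.13.

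Most of the listed partners of AIM2 and of the other DNA sensors were expressed in both genotypes. Nlrp3 (mean 0.1475 FPKM in WT and 0.076 FPKM in Ets1-/- B cells) and Mb21d1 (0.874 and 0.872 FPKM) were under the filter and were not tested. Of 21 listed genes 19 were tested, 0 were called higher by limma and 1 was called lower, beside 0.877% and 0.822% of all genes tested, and 4 had an unadjusted p under 0.05, beside 13.3%. Pycard, the gene of ASC, had 15.9 and 18.9 FPKM in WT and 20.6 and 24.7 FPKM in Ets1-/- B cells (fitted difference 0.36, limma, Benjamini-Hochberg adjusted p = 0.461). Casp1, which makes the protease of the inflammasome, had 42.0 and 53.5 FPKM in WT and 57.3 and 34.4 FPKM in Ets1-/- B cells (limma, adjusted p = 0.963). Tmem173, the gene of STING, had 77.4 and 62.5 FPKM in WT and 46.4 and 66.1 FPKM in Ets1-/- B cells (limma, adjusted p = 0.678).

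Nlrc4, an inflammasome sensor of bacterial proteins, was the called gene of this list. It fell from 11.2 and 10.8 FPKM to 2.34 and 2.88 FPKM (fitted difference -1.74, standard error 0.15, limma, Benjamini-Hochberg adjusted p = 0.0137). This call was lost when WT replicate 1, WT replicate 2 or Ets1-/- replicate 1 was left out. Il18, a cytokine cleaved by caspase-1, had 4.33 and 4.45 FPKM in WT and 16.1 and 11.1 FPKM in Ets1-/- B cells, and its fitted difference of 1.42 had an adjusted p (limma) of 0.0507, just above the threshold. Casp8 had 48.5 and 46.2 FPKM in WT and 37.2 and 29.3 FPKM in Ets1-/- B cells (fitted difference -0.51, limma, Benjamini-Hochberg adjusted p = 0.271). The median fitted difference of the 19 genes was 0.025.

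**Figure D5:**
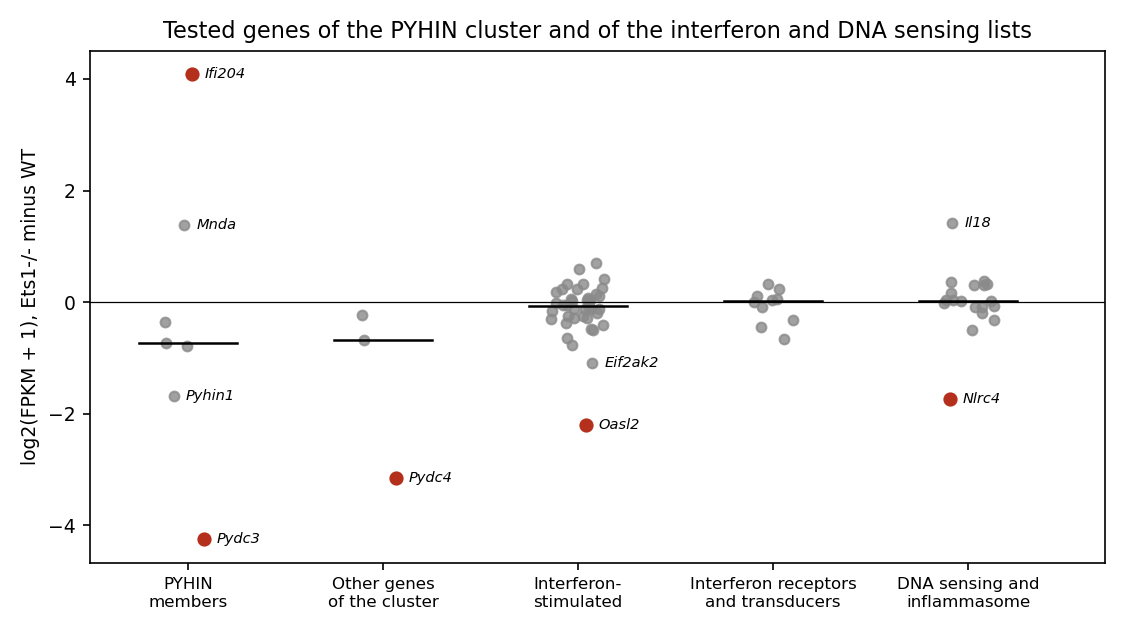
Difference on the log2(FPKM + 1) scale, Ets1-/- minus WT (y axis), of the tested genes of the PYHIN family, their 3 relatives, and the lists of interferon-stimulated genes, interferon receptors and transducers, and DNA sensing and inflammasome genes. Red points were called, black lines are medians and the sideways spread of points has no meaning. On this scale Ifi204 and Pydc3 lie beyond the range of the interferon-stimulated list, which runs from -2.21 to 0.70. By the ratio of means Oasl2 of that list was near Pydc3, with WT means 29.7 and 31.5 times the Ets1-/- means.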

How the data were processed

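The authors aligned reads to mm9 with TopHat2 2.0.13 and deposited 1 FPKM value per gene symbol and library from Cuffdiff; the submitters' processing notes name both tools. The Cuffdiff version, gene annotation, read length, strand setting and handling of reads shared between genes are not given in the sources used here. The reads of the Ets1-/- libraries, from mice of mixed strain background, were aligned to the same mm9 reference as the WT reads. Reads that differ from the reference may be lost or counted for a related gene. The part of this in the FPKM values of the cluster was not tested. Each table held 23309 entries, of which 4 were dropped because their symbol occurs more than once; 25 symbols read as dates. The depth of each library cannot be read from the FPKM values. A rough depth relative to WT replicate 1, the most frequent ratio of values under 0.05 FPKM, was 1.70 (WT replicate 2), 1.62 (Ets1-/- replicate 1) and 0.847 (Ets1-/- replicate 2), with 28.9% to 41.4% of genes within 0.05 log2 of it.

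Linear models were fitted to log2(FPKM + 1) with limma 3.58.1 in R 4.3.3 (eBayes with a trend, 2 residual and 3.10 prior degrees of freedom) for 10949 genes, with Benjamini-Hochberg adjustment over all of them, and the fit was tested on simulated data. With 2 libraries against 2, no permutation test can reach 0.05. Promoters were aligned with biopython 1.88, end gaps free. Words of 50 bases came from GENCODE M1 protein-coding transcripts.

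The members, gene lists and tests were chosen with earlier results of these data known. Named are the members, other genes of the cluster, Ets1, Pycard, Casp1, Tmem173 and leading markers. Of each list the called genes are named and, where fewer than 3 were called, the 3 with the largest absolute difference. Added after their values were seen were Csf1r, Emr1, Ngp, Camp, Ltf, Thy1, Ncr1, Klrb1c, Herc6, Rsad2, Nlrp3 and Mb21d1. Ifnar1, Ifnar2, Slamf6, Cd247, Atp1b1, Psen2 and Itln1 were also added then. Alternatives covered the pseudocount, the filter, quantile normalization, the replicate block, robust variances and each replicate left out.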

Additional observations from a re-analysis of the deposited data

How the results depend on the processing

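Of the values of single genes of the cluster recomputed under 11 alternatives, the direction changed for 2, Aim2 (0.115) and AI607873 (0.014), both without Ets1-/- replicate 2; with 1 replicate left out they ran from -0.836 and from -0.481 up to these values. Another 7 values moved by more than the spread between replicates without a change of direction. With a pseudocount of 0.1 these were Ifi204 (6.015), Mnda (2.849), Ifi202b (1.902), Ifi205 (1.143), Pydc3 (-4.896) and Pydc4 (-4.610), and without Ets1-/- replicate 2 Ifi202b (0.580). For Ifi202b and Ifi205, which were not fitted, the values are differences of mean log2 values. With a pseudocount of 1 and all libraries they were 0.381 and 0.324. Over the 11 alternatives the difference ran from -4.896 to -4.130 for Pydc3 and from 3.625 to 6.015 for Ifi204. Ifi204 lost its call without a filter on low values, where 17315 genes are tested. It was not tested when both genotypes had to reach a mean of 1 FPKM. The PYHIN genes were chosen with this comparison known, so nothing is read from their calls under any setting.

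The number of genes called was 186. Without a filter it was 75 (37 higher, 38 lower), with the filter in both genotypes 63 were higher, and with robust variances it was 305 (165 higher, 140 lower). A fit with the replicate block called 266, of which 154 were higher. Same-numbered libraries share only a number, and their deviations had a correlation of -0.207. With the crossed pairing as a block, chosen after seeing the data, the count was 409 (244 higher, 165 lower). Leaving out 1 replicate gave 99 to 116 genes, 41 to 84 higher and 32 to 59 lower. PYHIN genes called higher were 0 without a filter or with the filter in both genotypes. They were 2 (Ifi204 and Mnda, tested only through their Ets1-/- values) with robust variances, the block or the crossed block. Those called lower were 2 (Pydc3 and Pyhin1) with either block. Nothing is read from these counts of PYHIN genes.

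Called interferon-stimulated genes were 0 with the filter in both genotypes, 2 with the crossed block and 0 to 1 without 1 replicate. Called DNA sensing genes were 2 with a pseudocount of 0.1, the filter in both genotypes, quantile normalization, robust variances or either block, 0 without a filter, and 0 to 2 without 1 replicate. Called neighbours were 0 with the filter in both genotypes, where Pydc4 was not tested. The other causes of these changes were not tested.

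Depth limits Ifi202b, Ifi205 and the WT values of Ifi204 and Mnda, whose number of fragments is unknown.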
